A study of Mus musculus with 4 samples.

Results

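Conventional dendritic cells were studied in single-cell RNA sequencing (scRNA-Seq) of mouse digits labelled P3, the bone-bearing tip that regrows after amputation. A barcode was kept when it held 200 to 5500 detected genes, at most 30000 unique molecular identifiers (UMIs, each standing for 1 captured transcript) and at most 10% of UMIs from mitochondrial genes. The dendritic cells were chosen by measured values, namely UMIs of named genes. A kept barcode was a dendritic cell when the MHC class II transcripts H2-Aa, H2-Ab1 and Cd74 summed to at least 5 UMIs, when at least 2 of the 6 genes Flt3, Zbtb46, Cd209a, Xcr1, Clec9a and Ccr7 had a UMI, when Cd207 and the sum of C1qa, C1qb and C1qc were each at most 1 UMI, and when Cd79a was at 0. This rule found 334 cells among 93602 kept cells, namely 63 of 19827 in the lymph node removal (LNR) library, 55 of 20669 in the sham library, 142 of 29076 in the SAR131675 library and 74 of 24030 in the control diet library.

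The 4 libraries came from hindlimb digits of female C57BL/6 mice aged 6 to 8 weeks, with the digits of 10 mice pooled in each. LNR and sham digits came from opposite limbs, and the paper used the contralateral limb of the operated mouse as sham. Digits were pooled, so no pairing by mouse could be used. The SAR131675 mice ate a diet holding an inhibitor of VEGFR3 (encoded by Flt4), the receptor through which lymphatic vessels respond to VEGF-C, at 30 mg/kg for 8 days by the labels. The methods instead start this diet 5 days before amputation and keep it to the end. The tissue was cut from digits 2 to 4, whereas the surgery in the methods removed the tips of digits 2 and 4. For cell preparation the methods cut these digits at the proximal level of P2, the phalanx next to P3. The cells can therefore come from tissue outside the tip. For the diet pair the text of the study places collection at 8 days post amputation, whereas 1 legend gives 5. For the LNR pair a supplementary legend gives 8 days. With 1 library per condition, each labelled as a batch of its own, condition and library cannot be told apart, so values below carry 95% intervals for counting error and no p-value.

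Conventional dendritic cells take up antigen in tissues, display it on MHC class II and carry it through lymphatic vessels to lymph nodes, a route that CCR7 guides along its lymphatic ligand CCL21. FLT3 is the growth factor receptor and ZBTB46 the transcription factor that mark the lineage. It divides into cDC1, which bear XCR1 and CLEC9A, depend on IRF8 and present antigen of dead cells to CD8 T cells, and cDC2, which use IRF4 and are more varied, with CD209a on many of them. Langerhans cells, which bear CD207 (langerin), are the related antigen-presenting cells of the epidermis.

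Depth differed between the pairs more than within them. The median dendritic cell held 5035 UMIs in LNR, 4558 in sham, 10215.5 in SAR131675 and 10343.5 in the control diet library. Kept cells as a whole had medians of 5725, 5851, 11316 and 10712 UMIs in the same order, and the headers of the files differ in their Cell Ranger version, with 6.1.2 in the LNR pair and 8.0.1 in the diet pair. Comparisons were therefore made within pairs. Of all deposited barcodes, the LNR and sham libraries shared 130, the diet pair shared 348, and other pairs of libraries shared 0 to 3. No dendritic barcode was a dendritic cell in 2 libraries, and 1 dendritic barcode of the control diet library also occurred in the SAR131675 library. The pooled dendritic cells held 389817 UMIs in LNR, 294176 in sham, 1542167 in SAR131675 and 826583 in the control diet library.

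The rule fixed the levels of the genes it used, which are given only as a description. Cd209a, a C-type lectin, had a UMI in 294 of the 334 cells, Flt3 in 230, Zbtb46 in 178, Ccr7 in 44, and Xcr1 and Clec9a in 14 each. The genes that admitted cells differed between libraries. Zbtb46 had a UMI in 20.6% of LNR, 21.8% of sham, 69.0% of SAR131675 and 74.3% of control diet dendritic cells. For Flt3 these shares were 82.5, 70.9, 59.9 and 73.0%, and for Cd209a 84.1, 90.9, 90.1 and 85.1%. In keratinocytes, which should lack these transcripts and had median depths of 8547.5, 8392, 12350 and 11751 UMIs, the highest share with a UMI was 0.997% for Zbtb46 and 0.381% for Cd209a, and it was 0.0744% or less for the other 4 genes. The MHC class II sum had a median of 229 UMIs in LNR, 218 in sham, 421 in SAR131675 and 460.5 in the control diet library, and at most 1 cell per library lay between 5 and 9 UMIs. The requirement for 2 of the 6 genes was the close limit. Exactly 2 genes were present in 53 LNR, 50 sham, 94 SAR131675 and 40 control diet cells, and cells that met every other limit with 1 gene numbered 114, 146, 81 and 53. The Cd207 limit also left cells out. Those that met every other limit numbered 0, 0, 3 and 1 with 2 Cd207 UMIs, and 1, 3, 22 and 13 with 3 or more. The Langerhans cell gate below takes these cells in, and their subset was not tested. Counts of Xcr1/Clec9a cells below therefore cover only cells within the Cd207 limit.

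Markers that the rule did not use were in part those of the label and in part shared with macrophages. Ptprc, which encodes the leukocyte antigen CD45, had a UMI in 60 of 63, 50 of 55, 142 of 142 and 73 of 74 cells. Cd3 transcripts of T cells were at 0 apart from 1 control diet cell, and Ms4a1 of B cells was at 0 in all 334 cells, which allows up to 0.898% of cells with a captured UMI and sets no limit on cells that express the gene. Siglech, of plasmacytoid dendritic cells, had a UMI in 0, 1, 6 and 2 cells. By contrast, at least 3 UMIs of the macrophage genes Adgre1 and Mrc1 were present in 30.2% of LNR, 25.5% of sham, 75.4% of SAR131675 and 75.7% of control diet dendritic cells. The 22 shared dendritic genes summed to 7633 to 8483 CPM (a gene's UMIs scaled to 1000000 UMIs of the pooled cells) in dendritic cells. The sum was higher in Langerhans cells, at 9443 to 12483 CPM, lower in macrophages, at 4595 to 6660, and 1012 to 1246 in keratinocytes, where each of the 22 genes also had UMIs. Gene by gene the order differed from that of the sums. In each library 9 of the 22 were at least 2-fold higher in dendritic than in Langerhans cells, where 3.61% of all genes were. Only 1 (Tbc1d4) was lower, where 3.14% of all genes were. As these are 3′ UMI counts with no length scaling, levels below are compared between cells for 1 gene, not between genes.

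Transcripts of other tissue cells were also present. At least 1 UMI of Krt5 or Krt14, keratins of basal keratinocytes, was found in 34.9% of LNR, 34.5% of sham, 66.2% of SAR131675 and 58.1% of control diet dendritic cells, whereas the median cell held 0, 0, 1 and 1. At least 10 UMIs of 1 other class (Krt5 and Krt14, the collagens Col1a1, Col1a2 and Col3a1, the endothelial genes Pecam1 and Cdh5, or the hemoglobins Hbb-bs and Hba-a1) were found in 14 LNR, 5 sham, 24 SAR131675 and 5 control diet cells. Leaving these cells out was an alternative chosen after the values were seen, and several results below are given with and without them. Doublets were not removed, and the part of such transcripts in each result was not tested beyond these values.

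Dendritic cells made up 0.318% (0.244 to 0.406%) of kept cells in LNR and 0.266% (0.201 to 0.346%) in sham, intervals that overlap. For SAR131675 the share was 0.488% (0.412 to 0.575%), and for control diet it was 0.308% (0.242 to 0.386%), intervals that do not overlap. The log2 ratio of shares was 0.67 (0.25 to 1.09, a 1.59-fold ratio) for SAR131675 against control diet and 0.26 (-0.29 to 0.80) for LNR against sham. The diet ratio depended on which cells were counted. It was 0.22 (-0.44 to 0.90) when 3 of the 6 genes were required and 0.28 (-0.37 to 0.95) in cells thinned to 2000 UMIs, intervals that include 0. It was 0.42 (0.01 to 0.85) as a share of cells with a Ptprc UMI. When cells with 3 or more UMIs of other markers were left out it was -0.22 (-1.05 to 0.61), from 27 SAR131675 and 26 control diet cells. The other markers were 14 genes, namely Cd3d, Cd3e, Cd3g, Krt5, Krt14, Krt1, Krt10, Col1a1, Col1a2, Col3a1, Pecam1, Cdh5, S100a8 and S100a9. Without the cells that held 10 UMIs of 1 other class the diet ratio was 0.50 (0.06 to 0.95). In the same libraries the share of monocytes had a log2 ratio of 1.08 (0.39 to 1.81), of macrophages 0.04 (-0.11 to 0.18) and of Langerhans cells -0.07 (-0.49 to 0.35). For LNR against sham, Langerhans cells had a ratio of -0.61 (-0.999 to -0.22), macrophages 0.22 (0.10 to 0.35) and monocytes 0.36 (-0.22 to 0.94).

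**Figure D1:**
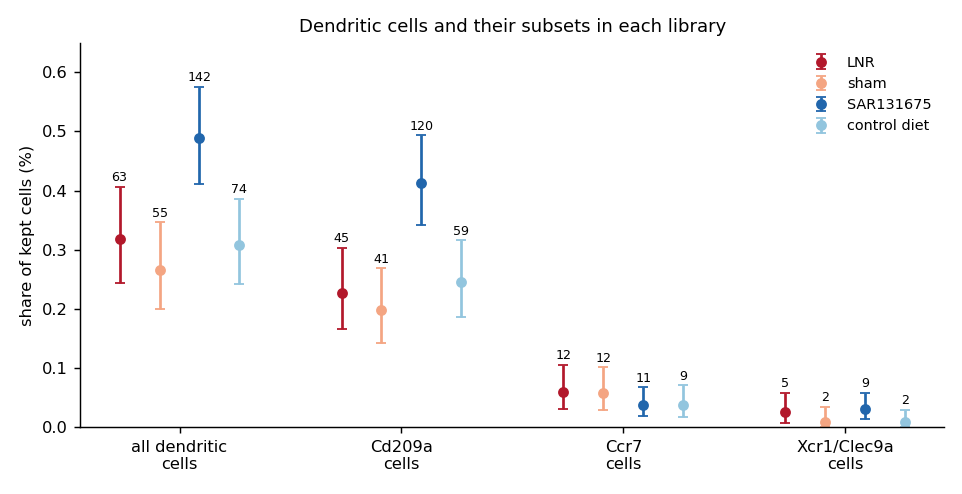
Share of kept cells (y axis, %) that were dendritic cells or belonged to 1 of 3 subsets (x axis) in each of 4 libraries, with 95% exact binomial intervals and the number of cells above each point. The SAR131675 point for all dendritic cells (0.488%) lies above the control diet point (0.308%), and most of the cells in every library were Cd209a cells.

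The dendritic cells were divided by genes of the rule itself, so the division is a description. Cells with a Ccr7 UMI were called Ccr7 cells. Of the others, those whose Xcr1 and Clec9a sum exceeded Cd209a were called Xcr1/Clec9a cells, those with Cd209a were called Cd209a cells, and 7 cells remained. Cd209a cells numbered 45 of 63 in LNR (71.4%, 58.7 to 82.1%), 41 of 55 in sham (74.5%, 61.0 to 85.3%), 120 of 142 in SAR131675 (84.5%, 77.5 to 90.0%) and 59 of 74 in the control diet library (79.7%). Ccr7 cells numbered 12, 12, 11 and 9, and Xcr1/Clec9a cells 5, 2, 9 and 2. As shares of kept cells, Cd209a cells had a log2 ratio of 0.75 (0.29 to 1.22) for SAR131675 against control diet. It was 0.21 (-0.57 to 1.01) with 3 of the 6 genes required, 0.06 (-0.87 to 1.01) without cells with 3 UMIs of other markers and 0.51 (-0.24 to 1.30) in cells thinned to 2000 UMIs, intervals that include 0. Ccr7 cells had 0.01 (-1.39 to 1.46), a width within which a change past 2-fold either way was not detectable at this depth, and Xcr1/Clec9a cells had 1.89 (-0.38 to 5.14) from 9 against 2 cells. For LNR against sham the ratios were 0.19 (-0.45 to 0.84) for Cd209a cells, 0.06 (-1.22 to 1.34) for Ccr7 cells and 1.38 (-1.23 to 4.77) for Xcr1/Clec9a cells.

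The 18 Xcr1/Clec9a cells carried cDC1 transcripts and lower levels of part of the cDC2 transcripts. The cDC2 genes summed to 2618 to 3972 CPM in them, against 9039 to 10095 CPM in Cd209a cells. Irf8, the transcription factor on which cDC1 depend, stood at 1577 CPM in LNR, 1582 in sham, 2075 in SAR131675 and 2044 in the control diet library, against 8.41, 3.47, 12.3 and 66.4 CPM in the other dendritic cells. The libraries did not overlap between the cell groups, and the smallest of the 4 log2 ratios, by which genes were ranked, was 4.94. Wdfy4, which cDC1 need for cross-presentation, stood at 425, 176, 797 and 896 CPM against 47.6, 45.1, 124 and 161. The sham values rest on 2 cells with 5690 UMIs in all, in which Wdfy4 and Rab7b each had 1 UMI. Of 14 cDC1 genes with enough UMIs, 7 were at least 2-fold higher than in the other dendritic cells in each of 4 libraries (Irf8, Wdfy4, Naaa, Rab7b, Ppt1, Cd24a and Septin3), where 0.415% of all 7237 genes were. Without sham it was 10 of the 14, where 1.2% of all genes were. None of the 14 was 2-fold lower in each library. Naaa, a lysosomal amidase, stood at 1243, 1406, 936 and 1745 CPM against 252, 253, 420 and 250, and Id2, a regulator that cDC1 development needs, at 546, 879, 822 and 1516 CPM against 126, 114, 241 and 206.

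Genes of cDC2 were in part lower in the same cells. Of 18 measured, 9 counted as lower in each library (Sirpa, Mgl2, Cd209d, Itgam, Klf4, Tmem176a, Tmem176b, S100a4 and Csf1r), where 6.05% of all genes did. A gene at 0 in these cells was counted as lower, although a 0 allows up to 91.0, 527, 38.0 and 68.9 CPM in LNR, sham, SAR131675 and control diet. With each 0 set to that limit, 2 of the 18 (Mgl2 and S100a4) were at least 2-fold lower in each library, where 0.152% of all genes were. Without sham it was 7, where 1.04% were, and Itgam and Csf1r were not among them. Tmem176a and Tmem176b, membrane protein genes active in cDC2, had no UMI in the 18 cells, against 228 to 305 and 283 to 403 CPM in Cd209a cells. Mgl2, a galactose-binding lectin, had 4 UMIs in the SAR131675 cells and 0 in the other 3 libraries, against 931 to 2010 CPM in Cd209a cells. Irf4, the cDC2 transcription factor, had 1 UMI in the 18 cells, whereas Cd209a cells held it at 134, 152, 65.6 and 110 CPM. Chemokine transcripts were low as well, with 7 of 12 counted as lower in each library, of which 2 (Ccl17 and Ccl9) were at least 2-fold lower with each 0 at its limit and sham left out. Genes of other cells were low beside them. Counted as lower in each library were 6 of 7 keratinocyte, 5 of 7 macrophage and 3 of 7 fibroblast genes, of which 3, 3 and 0 were so with each 0 at its limit and sham left out. The part of such transcripts in the low cDC2 and chemokine levels was not tested.

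**Figure D2:**
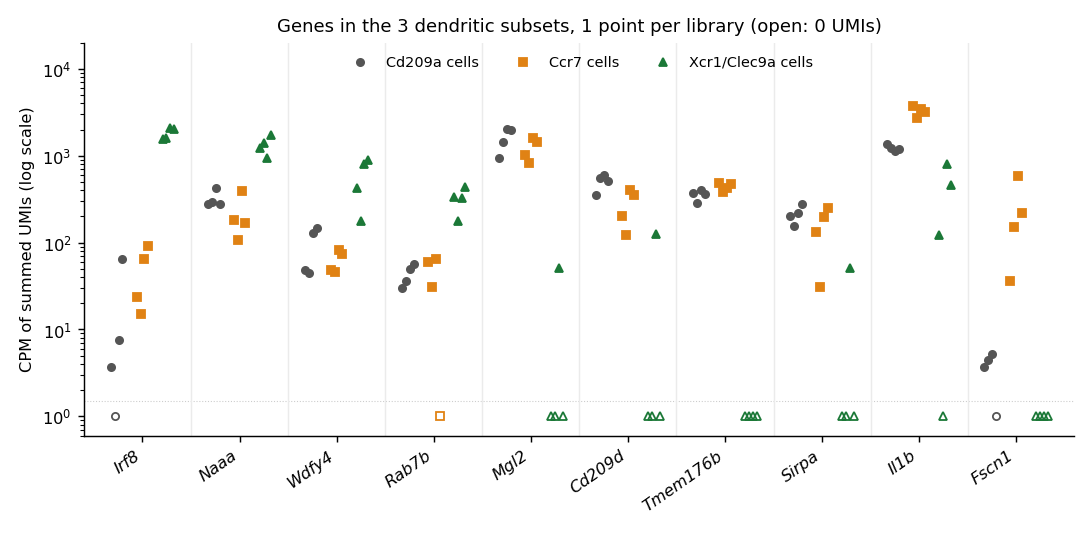
CPM of summed UMIs (y axis, log scale) for 10 genes in Cd209a, Ccr7 and Xcr1/Clec9a cells, with 1 point per library in the order LNR, sham, SAR131675 and control diet from left to right and open symbols for 0 UMIs. Irf8, Naaa, Wdfy4 and Rab7b are highest in Xcr1/Clec9a cells in every library, Mgl2, Cd209d, Tmem176b and Sirpa have 0 UMIs there in LNR, sham and control diet (in sham a 0 allows up to 527 CPM), and Il1b is highest in Ccr7 cells.

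The 44 Ccr7 cells were not uniform. Ccr7 had 1 UMI in 22 of them and 2 or more in the other 22, with a highest count of 22 UMIs in 1 LNR cell. None of 23 measured genes of mature, migratory dendritic cells was at least 2-fold higher than in the other dendritic cells in each of 4 libraries, where 0.152% of 7237 genes were. With LNR, sham, SAR131675 or control diet left out, 3, 2, 3 and 1 were, where 0.318, 0.29, 0.359 and 0.332% of all genes were. Their 38 genes summed to 4051 to 9229 CPM in Ccr7 cells, above the 2507 to 3280 CPM of Cd209a cells. Il1b, the cytokine interleukin 1 beta, stood at 3764, 2686, 3461 and 3155 CPM in Ccr7 cells against 1276, 1203, 1127 and 1126 in the other dendritic cells, with a smallest log2 ratio of 1.16 over the 4 libraries. Tbc1d4, a regulator of vesicle traffic, stood at 180, 183, 252 and 398 CPM against 45.7, 17.5, 62.0 and 57.1. Txnrd1, a thioredoxin reductase, had a smallest log2 ratio of 1.48, and Nfil3 and Bhlhe40, both transcription factors, had 1.05 and 1.01. Bcl2a1a and Bcl2a1b, which counter cell death, had 2.00 and 1.44, but they are near-identical copies whose UMIs may be split between them. Lower in each library were 54 genes (0.746% of 7237), or 22 (0.304%) with a 0 set to 3 counts. Among the 54 were 3 of 7 keratinocyte genes (Krtdap, Krt10 and Krt1).

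At least 3 of the 5 genes Fscn1 (the actin bundler of dendritic veils), Ccl22, Il4i1, Cacnb3 and Socs2, chosen after their values were seen, were present in 1 LNR, 1 sham, 3 SAR131675 and 2 control diet cells. Of these 7 cells, 5 had a Ccr7 UMI. By the way they were picked, these cells hold UMIs of the 5 genes, and their share of them is a description only. It was 22.0% in LNR, 83.7% in sham, 74.5% in SAR131675 and 83.9% in the control diet library. Ccl17, a ligand of CCR4 on T cells, was found in 13, 9, 13 and 11 dendritic cells of the 4 libraries. It stood at 180, 778, 1243 and 92.5 CPM in Ccr7 cells and at 458, 130, 87.5 and 365 CPM in Cd209a cells, higher in Ccr7 cells in sham and SAR131675 and lower in the other 2 libraries.

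Cd209a cells differed from the other dendritic cells in 23 genes that were at least 2-fold higher (0.318% of 7237) and 7 that were lower (0.0967%) in each library. The lower genes include Ccr7, which the division itself sets to 0 in Cd209a cells. In the same way, the higher genes of Ccr7 cells include Ccr7, and the lower genes of Xcr1/Clec9a cells include Ccr7 and Cd209a. Among the higher genes of Cd209a cells, the smallest log2 ratios were 2.22 for Krtdap, 2.07 for Ly6d and 1.95 for Krt10. Of the 23 higher genes, 12 stood above their Cd209a cell level in keratinocytes of each library. Desmosome genes (Pkp1, Dsc3 and Dsg1a) and the epidermal genes Dmkn, Calm4, Calml3, Klk8 and Mt4, named after their values were seen, were also among the 23. Of 7 keratinocyte genes on the list, 3 were higher in each library (Krtdap, Krt10 and Krt1). When SAR131675 was left out 6 were, where 0.884% of all genes were. The part of keratinocyte transcripts in the other differences was not tested. Cd209d, a lectin encoded beside Cd209a, had 1.05. Of 18 cDC2 genes measured, Cd209d was the 1 past 2-fold in each library. Irf8, Tbc1d4 and Psmb9 were among the lower genes.

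Beside macrophages of the same libraries (kept cells with at least 5 C1q UMIs), dendritic cells had higher levels of 7 of 10 MHC class II presentation genes and lower levels of 12 of 14 macrophage genes. The dendritic rule required MHC class II UMIs and low C1q. The macrophage gate required C1q and set no limit on MHC class II. The choice of cells can therefore shape the levels of both lists, which are a description. At least 2-fold higher levels in each of 4 libraries were found for 334 of 13167 genes (2.54%), and lower levels for 810 (6.15%), or 475 (3.61%) with a 0 in dendritic cells set to 3 counts in place of counting as lower. Ccl17 stood at 357, 272, 175 and 294 CPM in dendritic cells against 0.559 to 1.07 in macrophages, with a smallest log2 ratio of 7.41 over the 4 libraries, which ranked it first. Klrb1b, a lectin-like receptor best known from natural killer cells, stood at 213, 238, 389 and 381 CPM against 3.20, 0.893, 3.10 and 3.91. Btla, an inhibitory receptor, stood at 20.5, 13.6, 33.1 and 37.5 CPM against at most 0.373. P2ry10, Siglecg, Adam23, Il18r1, Gpr171, St8sia1 and Septin3 followed, with smallest log2 ratios of 5.91 to 5.57. For each gene named here, every dendritic value was above every macrophage value, which follows largely from ranking genes by their smallest ratio.

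Of the gene lists, 11 of 22 shared dendritic genes were higher than in macrophages in each library (among them Irf4, Itgax, Batf3 and Ciita) and none was lower. Of 10 MHC class II presentation genes outside the rule, 7 were higher, including H2-Eb1, Ciita, the class II transactivator, and H2-DMa, the peptide-loading chaperone. H2-Eb1 stood at 6536, 7380, 9173 and 9173 CPM against 382, 287, 624 and 582.4. The lysosomal protease gene Lgmn was lower. None of 12 MHC class I presentation genes was past 2-fold in each library. Of 14 macrophage genes, 12 were lower, including Mrc1, Mertk, Fcgr1 and Csf1r, and Adgre1 and Cd163 were not past 2-fold in each library. Of 19 chemokines, Ccl17 and Ccl22 were higher and 6 were lower (Ccl2, Ccl6, Ccl7, Ccl8, Ccl12 and Ccl24).

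Beside Langerhans cells (kept cells with at least 2 Cd207 UMIs, MHC class II and at most 1 C1q UMI), dendritic cells were higher for 358 of 9908 genes (3.61%) and lower for 311 (3.14%). H2-Eb1 differed little, at 5337, 5890, 9324 and 8318 CPM in Langerhans cells, with log2 ratios from -0.02 to 0.33. Ccl9 stood at 262, 231, 224 and 189 CPM in dendritic cells and at 0 to 1.68 in Langerhans cells. Mgl2 stood at 893, 1285, 1865 and 1705 CPM against 5.30, 12.3, 44.5 and 43.9. Cybb, the phagocyte oxidase subunit, Lyz2, lysozyme, and Mrc1, the mannose receptor, had smallest log2 ratios of 5.84, 4.85 and 5.52. Zeb2, a transcription factor of myeloid and cDC2 development, stood at 305, 333, 1201 and 1159 CPM against 28.7 to 67.4. Of 7 Langerhans cell genes outside the gate, 5 were lower in each library, among them Epcam and Cdh1, the adhesion genes that bind Langerhans cells to keratinocytes. Of 18 cDC2 genes, 11 were higher and 2 (Il1r2 and Csf1r) were lower.

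The monocytes were kept cells with a UMI of Plac8 and of Ccr2, at most 1 of C1q, at most 1 of Cd207 and 0 of Cd79a. Cells that met the dendritic rule were left out of them. Beside these monocytes, 121 of 8298 genes (1.46%) were higher in each library and 136 (1.64%) lower. These counts cannot be set against those for macrophages, since the monocytes numbered 25 to 64 per library against 685 to 1160 macrophages, and a count of 0 in them allows 6.06 to 18.1 CPM against 0.442 to 0.559. Mgl2 and Cd209d led, with smallest log2 ratios of 4.53 and 4.61, followed by Klrb1b at 4.34 and Cd163 at 4.08. Ccl17 had no UMI in monocytes of any library and was at least 4.02 higher on the log2 scale, computed against 3 counts per library. Of 10 MHC class II presentation genes, 6 were higher. Only the dendritic rule, not the monocyte gate, required MHC class II, so the choice of cells can shape these levels. Of 8 monocyte genes, 6 were lower, among them Ly6c2, Chil3, Hp, Gda and Lyz2. Ccr2, which brings monocytes from the blood, was shared. It stood at 469, 330, 741 and 684 CPM in dendritic cells and at 616, 487, 916 and 970 in monocytes, where the gate required it, against 62.5 to 90.3 in macrophages. Il1b was likewise shared, at 1809, 1533, 1313 and 1391 CPM in dendritic cells against 2070, 1993, 1926 and 2958 in monocytes, and at 85.5 to 218 in macrophages. Csf1r, the receptor for CSF1, was lower in dendritic cells than in each of the other 3 cell groups in each library, at 100.05, 47.6, 64.2 and 93.2 CPM.

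**Figure D3:**
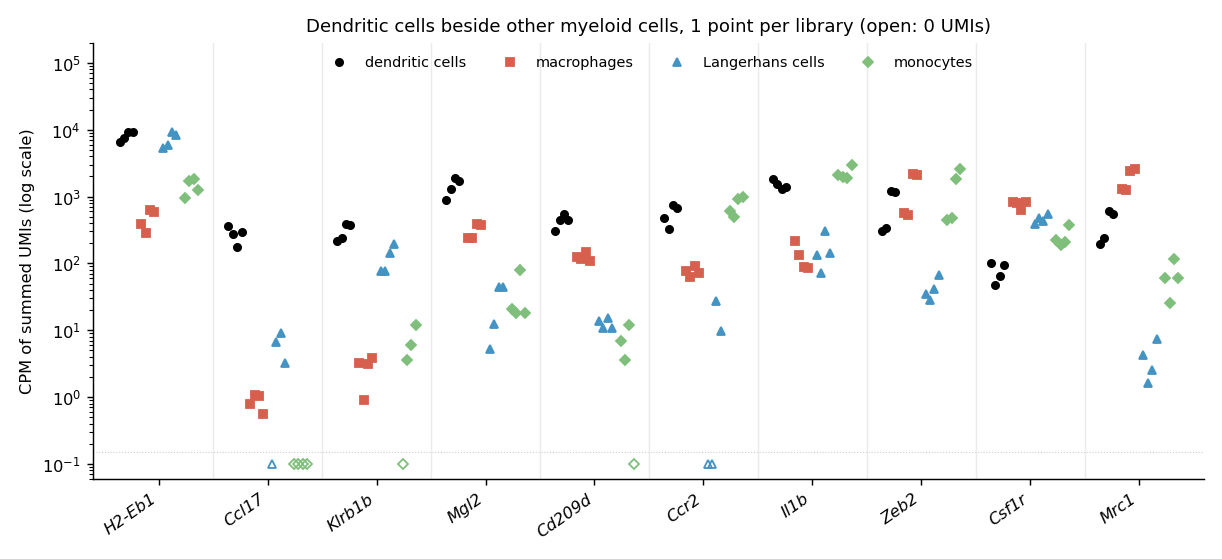
CPM of summed UMIs (y axis, log scale) for 10 genes in dendritic cells, macrophages, Langerhans cells and monocytes, with 1 point per library in the order LNR, sham, SAR131675 and control diet and open symbols for 0 UMIs. Ccl17, Mgl2 and Cd209d are highest in dendritic cells in every library, H2-Eb1 is shared with Langerhans cells, Ccr2 and Il1b are shared with monocytes, and Csf1r is lower in dendritic cells than in the other 3 groups.

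Because the study concerns bone resorption and lymphatic vessels, the genes of both were read in the dendritic cells. Tnfrsf11a, which encodes the RANKL receptor RANK, stood at 12.8, 13.6, 67.4 and 67.7 CPM, against 71.3, 68.1, 162 and 162 in macrophages. Its ligand gene Tnfsf11 had a UMI in 1 LNR and 1 control diet cell and in none of the other libraries. The osteoclast genes Ctsk, Mmp9 and Acp5 had UMIs in at most 9, 1 and 7 cells per library. Dcstamp, which osteoclast precursors need to fuse, stood at 2.57 and 0 CPM in the LNR pair, 31.1 in SAR131675 and 9.68 in the control diet library, and at 14.8 to 202 in Langerhans cells. Flt4, the target of SAR131675, had a UMI in 0 LNR, 0 sham, 2 SAR131675 and 1 control diet cell, and the 0 of 63 and 0 of 55 cells allow up to 4.76% and 5.45% of cells with a captured UMI, not of cells that express it. In keratinocytes, 0.273 to 0.533% of cells had a Flt4 UMI.

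In SAR131675 against control diet, 283 of 6543 genes with at least 50 UMIs over the dendritic cells were past 2-fold (4.33%), of which 161 were higher (2.46%) and 122 lower (1.86%). The median log2 ratio of all genes tested was -0.03. Without the 24 SAR131675 and 5 control diet cells that held 10 UMIs of 1 other class, 154 of 5773 genes were past 2-fold (2.67%). Of these, 46 were higher and 108 lower, so the balance of higher against lower turned. With all cells, the sum over the 4 hemoglobin genes was 4359 CPM for SAR131675 and 157 for control diet, and it was 71.5 and 108 without these. Fibroblast genes summed to 1002 and 81.1 CPM with all cells and to 75.7 and 47.8 without. On their list, 5 of 6 genes were past 2-fold higher with all cells, with a median log2 ratio of 5.08. Keratinocyte genes summed to 2435 CPM in SAR131675 and 4568 in control diet with all cells, where 2 of 8 were past 2-fold higher and 3 lower. Without the cells above they summed to 1482 and 4228 CPM, and 5 of 7 were past 2-fold lower, with a median of -1.37. The part of such transcripts in the turned balance was not tested.

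The genes ranked highest in SAR131675 included those transcripts. Hbb-bs (log2 ratio 5.25), Hbb-bt (4.92), Hba-a1 (4.33) and Hba-a2 (4.41), pairs of near-identical copies, led the list, and 3 of them were lower than in the control diet library once the cells above were left out. Since those cells were picked by UMIs of Hbb-bs, Hba-a1 and Pecam1 among others, a fall of these genes without them is set by the choice. Pecam1, an endothelial adhesion gene, had 169 against 23 UMIs (1.98) with all cells and a log2 ratio of 0.36 without them. Of the other 5 genes, Evl, Csrp2, Dcstamp and Ints14 stayed past 2-fold without them (1.51, 1.17, 1.72 and 1.44), and Ccl22 did not (0.64). Without cells with 3 UMIs of other markers Csrp2 turned to -0.0253, from 6 against 6 UMIs, and in thinned cells Ccl22 turned to -1.78. Dcstamp had 48 UMIs in 16 SAR131675 cells against 8 UMIs in 3 control diet cells (1.69, 0.59 to 2.98). Evl, an actin regulator, had 54 UMIs in 29 cells against 8 UMIs in 8 cells (1.86, 0.78 to 3.14). Ccl22 had 78 against 14 UMIs (1.58), of which 1 cell held 56.4% in SAR131675 and 1 cell held 78.6% in the control diet library.

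For 6 of the 10 genes ranked lowest in SAR131675, 1 control diet cell held over 50% of the UMIs. Ifitm1, an interferon-induced membrane gene, had 8 against 116 UMIs (log2 ratio -4.76), of which 1 control diet cell held 61.2%. Single control diet cells held 75.6% of the Satb1 UMIs (10 against 45, -3.07), 83.3% of Cd72 (14 against 42, -2.48) and 62.8% of Cd69 (9 against 43, -3.16). Cxcl2, a neutrophil chemokine, had 69 UMIs in 9 cells against 195 UMIs in 4 cells (-2.40). Stat4 had 36 against 88 UMIs (-2.19), with 54.5% in 1 cell, and Shc4 17 against 35 (-1.94), with 71.4% in 1 cell. Ncapd2 (-2.04), Cep55 (-1.78) and Chst11 (-1.77) completed the list, with UMIs in 12, 9 and 15 control diet cells and 26.2, 48.6 and 32.1% of them in 1 cell, and the first of these encodes a condensin subunit and the second a protein of cell separation.

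In LNR against sham, 108 of 1814 genes were past 2-fold (5.95%), 66 higher (3.64%) and 42 lower (2.32%), with a median log2 ratio of 0.04. Without the 14 LNR and 5 sham cells that held 10 UMIs of 1 other class, 68 of 1293 genes were past 2-fold (5.26%), 28 higher and 40 lower. Fibroblast genes summed to 4882 CPM in LNR and 670 in sham with all cells and to 89.4 and 525 without these, and on their list 5 of 5 genes were past 2-fold higher with a median of 3.32. Keratinocyte genes summed to 3376 CPM in LNR and 8454 in sham with all cells, where 6 of 9 were past 2-fold lower with a median of -1.32, and to 479 and 8321 without these, where 5 of 5 were with a median of -4.41. Defb6 (6.00) and Cst6 (4.97), both epithelial, ranked highest, and 1 LNR cell held 99.3% and 99.7% of their UMIs. Cst6 turned to -2.45 (-4.03 to -1.12) without its richest cell in each library and to -3.73 without the cells with 10 UMIs of 1 other class.

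The other genes ranked in the LNR pair were spread over more cells. Irf8 had 55 UMIs in 7 LNR cells against 10 UMIs in 3 sham cells (log2 ratio 2.05, 1.07 to 3.19), and Xcr1/Clec9a cells held 52 and 9 of them. Plac8, a gene of monocytes and plasmacytoid cells, had 72 UMIs in 13 cells against 20 UMIs in 5 cells (1.44). Sertad1 had 53 UMIs in 26 cells against 12 in 10 (1.74), Cited2, a transcriptional coregulator, 57 in 28 against 16 in 10 (1.43), and Ciao2a 51 in 31 against 17 in 13 (1.18). Smc4, another condensin subunit, Mki67 and Hnrnpdl had 1.31, 1.24 and 1.10. Lower in LNR were Wfdc17, a secreted antiprotease, with 379 against 877 UMIs (-1.62), of which 1 sham cell held 48.3%, and Nlrp3, the inflammasome sensor, with 22 against 38 (-1.19). Tet3, Ube2f, Cyth4, Dapp1, Nrd1, Ccnd1, Mrps33 and Klrd1 had ratios of -1.29 to -0.96, with no more than 16.0% of the sham UMIs in 1 cell for each.

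**Figure D4:**
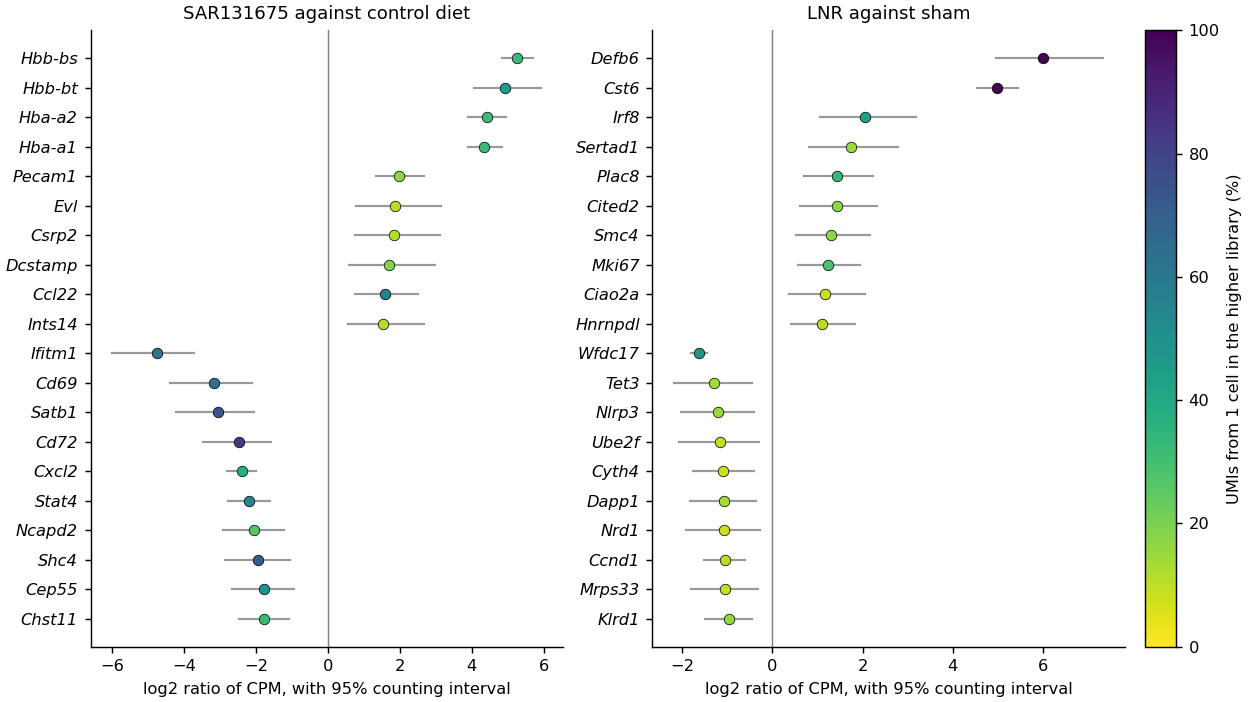
Log2 ratio of CPM with its 95% counting interval (x axis) for the 10 highest and 10 lowest genes of each pair in dendritic cells, coloured by the percentage of the gene's UMIs that 1 cell held in the library where it was higher. Defb6 and Cst6 have 99.3% and 99.7% of their LNR UMIs in 1 cell, and Evl, Csrp2 and Ints14 are among the SAR131675 genes spread over many cells.

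The lists of dendritic genes hold few measured genes each, and their counts past 2-fold stand beside a background of 4.33% of all genes in the diet pair and 5.95% in the LNR pair, from which no difference was tested. In SAR131675 against control diet, 1 of 22 shared dendritic genes (Kmo, of tryptophan breakdown, 1.05), 0 of 12 cDC1 genes, 0 of 19 cDC2 genes and 0 of 10 MHC class II presentation genes were past 2-fold. Their median log2 ratios were -0.13, -0.17, 0.04 and 0.07. H2-Eb1 stood at 9173 CPM in both libraries, with a log2 ratio of 0.00 (-0.04 to 0.04). Mgl2 had 0.13 (0.04 to 0.22), Ccr2 0.12 (-0.03 to 0.26) and Il1b -0.08 (-0.19 to 0.02). Among genes of the rule, Cd209a had 0.74, Flt3 -0.59 and Ccr7 -1.26, values that the choice of cells can shape. In LNR against sham, 1 of 11 shared dendritic genes and 1 of 4 cDC1 genes were past 2-fold, and both are the same gene, Irf8. Of cDC2 genes 1 of 17 was, and of MHC class II genes 0 of 5. The medians were -0.01, 0.68, 0.07 and -0.05 in the same order. Mgl2 had -0.53 (-0.74 to -0.31), Cd209d -0.56 (-0.93 to -0.19), Ccr2 0.51 (0.15 to 0.88) and Il1b 0.24 (0.07 to 0.41). Of mature, migratory genes, 1 was past 2-fold higher and 1 lower among 21 in the diet pair, and 0 of 9 in the LNR pair. Without the cells that held 10 UMIs of 1 other class, 0 were higher and 3 lower among 18 mature genes in the diet pair, and in the LNR pair 4 of 5 MHC class II genes were above 0 in place of 1 of 5, with a median of 0.15, and 2 of 4 cDC1 genes were past 2-fold, with a median of 1.004. In that setting 59.6% of all genes were above 0 and 5.26% past 2-fold in the LNR pair, with a median of 0.07, and 2.67% were past 2-fold in the diet pair, and no difference from that background was tested. The interferon-stimulated genes had 0 of 6 and 0 of 2 past 2-fold.

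Cell division genes differed in opposite directions in the 2 pairs. In SAR131675 against control diet, 13 of 16 measured genes were lower, where 45.6% of all genes were higher. Past 2-fold lower were 7, where 1.86% of all genes were, and the median log2 ratio was -0.92. Mki67, the proliferation antigen, stood at 136 CPM against 315 (-1.21, -1.48 to -0.95) and Top2a, topoisomerase II alpha, at 113 against 255 (-1.18). Ube2c, of mitotic exit, had 62 against 94 UMIs (-1.50). The 3 genes that were higher were Pcna at 0.37 (-0.02 to 0.76), Pclaf at 0.22 (-0.24 to 0.71) and Rrm2 at 0.21 (-0.41 to 0.85), each with an interval that includes 0. In LNR against sham, 8 of 8 measured genes were higher, where 54.4% of all genes were. Past 2-fold higher were 3, where 3.64% of all genes were, and the median was 0.62. Mki67 stood at 200.1 CPM against 84.98 (1.24, 0.57 to 1.95) and Hmgb2, a chromatin protein of dividing cells, at 929 against 456 (1.03). Ube2c had 50 UMIs in 7 LNR cells against 7 in 2 sham cells (2.43).

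The same was read as a share of cells. At least 2 UMIs of Mki67 and Top2a together were found in 23 of 142 SAR131675 cells (16.2%, 10.6 to 23.3%), 23 of 74 control diet cells (31.1%, 20.8 to 42.9%), 11 of 63 LNR cells (17.5%, 9.05 to 29.1%) and 6 of 55 sham cells (10.9%, 4.11 to 22.2%). The log2 ratio of these shares was -0.94 (-1.84 to -0.04) for SAR131675 against control diet and 0.68 (-0.88 to 2.40) for LNR against sham. With no upper limits on genes and UMIs the diet ratio was -0.61 (-1.34 to 0.12), and without the cells that held 10 UMIs of 1 other class it was -0.64 (-1.58 to 0.31). Without cells with 3 UMIs of other markers it was -2.38 (-5.61 to -0.15), from 2 against 10 cells. With each cell thinned to 2000 UMIs, at least 1 UMI of either gene was found in 14.2% (8.88 to 21.1%) of SAR131675 and 19.2% (10.9 to 30.1%) of control diet cells. It was found in 20.3% (11.0 to 32.8%) of LNR and 14.3% (5.94 to 27.2%) of sham cells. The intervals overlap in both pairs, and 1, 1, 4 and 6 shallower cells were left out. The diet difference depended on the limits of the cell filter. With no upper limit on genes and UMIs, 10 of 20 division genes were higher in SAR131675 and the median log2 ratio was 0.02. Without the cells that held 10 UMIs of 1 other class the median was -0.39, with no gene past 2-fold. In the LNR pair the median was 1.01 and 1.09 under these 2 settings. With 0 UMIs of Cd207 and C1q required, the LNR median was 1.88 and the log2 ratio of shares 1.51 (-0.42 to 3.99), from 11 against 3 cells.

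**Figure D5:**
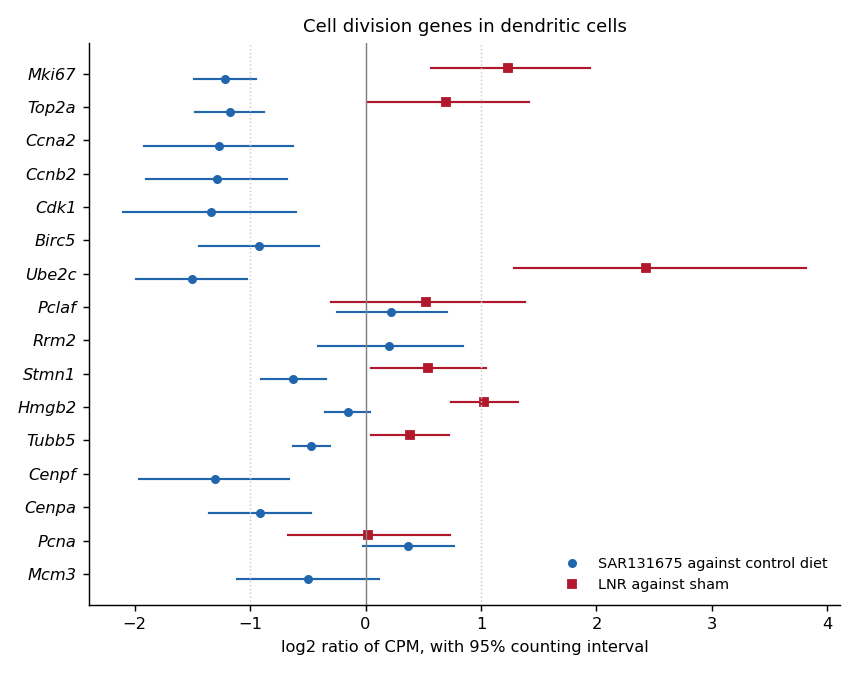
Log2 ratio of CPM with its 95% counting interval (x axis) for 16 cell division genes in dendritic cells (y axis), for SAR131675 against control diet and for LNR against sham, with dotted lines at 2-fold. Mki67, Top2a and Ube2c lie below 0 in the diet pair and above 0 in the LNR pair, and Pcna and Pclaf have intervals that include 0 in both.

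Of 54 genes that met the limits for ranking in both pairs, 32 had the same sign in each and 22 had opposite signs. Those ranked highest were Efr3a at 0.58 and 0.97, Srsf9, a splicing factor, at 0.56 and 0.89, Tgif1 at 0.48 and 0.69, Eid1 at 0.38 and 0.59, and Rsrp1 at 0.36 and 0.68 for SAR131675 and LNR in turn. Those ranked lowest were Nlrp3 at -0.90 and -1.19, Traf1 at -0.60 and -0.70, Plaur, the urokinase receptor, at -0.52 and -0.59, Mef2c at -0.48 and -0.82, and Ifitm1 at -4.76 and -0.45. Under at least 1 alternative the sign turned in 1 or both pairs for Tgif1, Eid1, Rsrp1, Traf1, Plaur, Mef2c and Ifitm1, and it did not for Efr3a, Srsf9 and Nlrp3. For Ifitm1, 1 cell held 61.9% of the LNR and 73.0% of the sham UMIs.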

How the data were processed

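The authors deposited 1 UMI count matrix per library, made with Cell Ranger (version 6.1.2 by the labels for every library, 8.0.1 in the file headers of the diet pair) against GRCm39. These counts are raw and whole, one value per gene and barcode. Barcodes were kept and dendritic cells chosen by the rule given above, summed per library and divided by their total UMIs (CPM). Macrophages, Langerhans cells, monocytes and keratinocytes were gated on the same counts. Ratios of CPM or of shares carry exact conditional 95% intervals, shares carry Clopper-Pearson intervals, and 3 counts stood for a 0 in the cell group compared against, while a 0 in the first group counted as lower unless stated. Intervals cover counting error only. Computations used Python 3.11.15, numpy 2.4.6, scipy 1.17.1 and pandas 2.3.3, and the ratios and intervals were tested on simulated data. The simulated UMIs were independent Poisson counts, as the intervals assume. In the real data the UMIs of a gene can gather in 1 cell, so the simulation does not show how the intervals perform there. Doublets were not called, no coordinates or sequences were used, and no sample column was left unmapped. Genes were past 2-fold at a log2 size of 1 among those with at least 50 UMIs, in each of 4 libraries for comparisons of cell groups. Named pair genes were the 10 highest and 10 lowest with UMIs in at least 10 cells, an interval excluding 0 and a CPM above that of the other kept cells. Per comparison of cell groups, the 10 genes with the largest smallest ratio were ranked, and genes of the lists were named by their UMIs. The rule, gates and 27 gene lists were chosen with earlier results of these data known. Listed symbols of earlier date were read under current names (Sept3 as Septin3, Cxx1a as Rtl8a, Cxx1b as Rtl8b, Mgl1 as Clec10a).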

Additional observations from a re-analysis of the deposited data

Results flagged for a closer look

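Several ratios had opposite directions in the 2 pairs, with both counting intervals excluding 0 for each gene. These intervals count UMIs and do not cover the spread between cells. With 1 library per condition these differences were not tested. For SAR131675 against control diet and for LNR against sham in turn, the log2 ratios were -1.21 and 1.24 for Mki67, -0.58 and 1.31 for Smc4, -0.53 and 2.05 for Irf8, -0.94 and 1.44 for Plac8, and 0.19 and -1.62 for Wfdc17. Defb6 had -3.84 and 6.00 and Cst6 -1.18 and 4.97, and in LNR 1 cell held 99.3% and 99.7% of their UMIs. Irf8 stood higher in Xcr1/Clec9a cells, which numbered 9 in SAR131675, 2 in control diet, 5 in LNR and 2 in sham. Their share of dendritic cells had log2 ratios of 1.23 (-1.04 to 4.48) and 1.13 (-1.48 to 4.52), intervals that include 0. The part of these few cells in the Irf8 ratios was not tested. The LNR ratio took the sign of the diet ratio for Wfdc17 when 3 of the 6 genes were required (0.79, 0.06 to 1.57), and for Cst6 without its richest cell in each library (-2.45) or without cells with 10 UMIs of 1 other class (-3.73), settings under which the diet ratios of these genes were not recomputed. The cell division genes had medians of -0.92 and 0.62. The diet median was 0.0198, with 10 of 20 genes higher, when the upper limits on genes and UMIs were dropped, and -0.39, with none past 2-fold, without cells that held 10 UMIs of 1 other class.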

How the results depend on the processing

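No paired analysis was possible because each condition had 1 library and no result came from a test. Leaving out a library removes its pair. Comparisons of cell groups were read again in the other 3 libraries, an alternative chosen after the data were seen, and requiring 3 libraries in place of 4 raised every count. Genes higher numbered 359 to 474 against macrophages (334 with all 4), 397 to 468 against Langerhans cells (358) and 161 to 188 against monocytes (121). They numbered 21 to 26 in Ccr7 cells (11), 42 to 87 in Xcr1/Clec9a cells (30, with 87 reached without sham) and 36 to 64 in Cd209a cells (23). Genes lower numbered 982 to 1169 (810), 356 to 432 (311), 165 to 207 (136), 119 to 170 (54), 590 to 975 (438) and 18 to 26 (7) in the same order. With a 0 set to 3 counts in place of counting as lower, the lower genes in all 4 libraries numbered 475, 224, 133, 22, 11 and 7. For shares and for ratios of shares or of gene levels a value inside the reported counting interval, often a wide one, was taken as not moved, so that 0.28 in thinned cells against 0.67 for SAR131675 did not count as a move, nor did 0.0309 against 0.26 for LNR without cells with 10 UMIs of 1 other class. For counts a value within 1.5 times was, for the cell division median a value within 1 on the log2 scale, and for the smallest ratio to another cell class one still past 2-fold. By these limits 14 of the main values moved and 1 turned its sign, and 102 and 21 of the others did. A further 89 could not be computed, with under 10 UMIs left. Leaving out cells with 10 UMIs of 1 other class, and every setting for cell division, were chosen after the data were seen. The cause was not tested for any change below, beyond fewer cells, UMIs or genes where the setting itself removes them.

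The log2 ratio of shares was 0.22 for SAR131675 and 1.06 for LNR with 3 of the 6 genes required, and -0.22 for SAR131675 without cells with 3 UMIs of other markers. Genes past 2-fold numbered 283 of 6543 tested (4.33%) in SAR131675, and the number tested changed with the setting. Such genes became 542 of 8486 (6.39%) with no upper limits on genes and UMIs and 67 of 1767 (3.79%) without cells with 3 UMIs of other markers. They were 154 of 5773 (2.67%) without those with 10 UMIs of 1 class and 18 of 551 (3.27%) in thinned cells. With minimums of 20 and 100 UMIs they were 893 of 9385 (9.52%) and 100 of 4319 (2.32%). In LNR 108 of 1814 (5.95%) became 26 of 249 (10.4%) with 3 of the 6 genes. They were 22 of 953 (2.31%) without cells with 3 UMIs of other markers. Without those with 10 UMIs of 1 class they were 68 of 1293 (5.26%), and in thinned cells 3 of 222 (1.35%). With the same minimums they were 477 of 4252 (11.2%) and 50 of 873 (5.73%). The cell division median of SAR131675 turned to 0.0198 with no upper limits.

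Single genes that turned in SAR131675 were Hbb-bs (-0.69), Hba-a2 (-2.03), Hba-a1 (-1.83), Csrp2 (-0.0253) and Rsrp1 (-0.0108) without cells with 3 UMIs of other markers, Hbb-bt (-1.004), Hba-a2 (-1.49) and Hba-a1 (-1.32) without those with 10 UMIs of 1 class, Ccl22 (-1.78), Tgif1 (-0.35) and Eid1 (-0.18) in thinned cells, and Mef2c (0.14) with 3 of the 6 genes. In LNR they were Cst6 (-3.73 without cells with 10 UMIs of 1 class, -2.45 without the cell richest in it), Wfdc17 (0.79), Rsrp1 (-0.37) and Plaur (0.52) with 3 of the 6 genes, Traf1 (0.21) and Ifitm1 (0.54) in thinned cells, and Ifitm1 (0.0367) without its richest cell. The small number of cells, 55 to 142 per library, limits what can be detected in each subset.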
